A study of Arabidopsis thaliana with 18 samples.

Results

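The question addressed here was whether seedlings lacking PIF4 and PIF5 changed their transcripts by a different amount from wild type over 24 h of far-red light. The measure was the difference between genotypes in the response: the pif4pif5 change from darkness to 24 h of far-red light, minus the same change in wild type, in log2 units. A value of -1 therefore means that the transcript ended 2-fold lower in pif4pif5, relative to its own dark level, than the wild-type response would have placed it. The comparison used 12 of the 18 arrays of the study, 3 in each of 4 groups, and covered all 22746 probe sets that were not Affymetrix controls.

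Both genotypes of Arabidopsis thaliana were in the Columbia background. Seeds spent 3 days in the cold and the dark, germination was started with red light (50 µmol/m2/s for 3 h), and the seedlings then grew for 3 days in darkness. The 4 groups were wild type in darkness, wild type given far-red light (5 µmol/m2/s) for 24 h, pif4pif5 in darkness and pif4pif5 after the same 24 h treatment. The remaining 6 arrays, wild type and pif4pif5 exposed for 1 h to a weaker far-red light (0.5 µmol/m2/s), entered the estimate of the spread. RNA came from pooled seedlings, and about 100 seeds were plated per the labels' protocols. No dark group of the same age as the 24 h seedlings was among the samples. Light and a further day of development therefore cannot be told apart in either genotype's response. The same limit holds for the difference between genotypes in that response. The labels do not say that replicates A, B and C were separate cultures, so the spread on which p-values rest is that among these samples and may be technical.

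Phytochrome A is the photoreceptor through which etiolated seedlings perceive continuous far-red light. Its nuclear import depends on the shuttle proteins FHY1 and FHL, and its signalling raises transcripts of the photosynthetic apparatus and restrains the elongation typical of dark growth. PIF4 and PIF5 are basic helix-loop-helix transcription factors that interact with light-activated phytochrome and promote growth in darkness and in shade. Neither PIF4 nor PIF5 had an assigned probe set, so the genotype labels were not checked on the mutated genes. In RNA from pooled seedlings, fewer cells of a type and less RNA per cell cannot be told apart.

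The 24 h response was called in 2559 probe sets in wild type (11.3% of those tested, 1018 or 4.48% higher and 1541 lower) and in 2605 in pif4pif5 (11.5%, 964 or 4.24% higher and 1641 lower). A probe set was called when its Benjamini-Hochberg adjusted p in limma was under 0.05. The lists shared 1574 probe sets, of which 746 were higher and 827 lower in both genotypes and 1 moved in opposite directions. The shared calls of the same direction were 61.5% of the wild-type calls and 60.4% of the pif4pif5 calls. These responses have no array in common, and across all probe sets they correlated with a Pearson r of 0.749 and a Spearman rho of 0.545. These correlations describe probe sets, which are not independent replicates.

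Few genotype differences in the response passed the threshold after adjustment over all probe sets. The difference was called for 3 of 22746 probe sets (0.0132%), 1 of them higher and 2 lower in pif4pif5. At an unadjusted p under 0.05 there were 1338 (5.88%), 944 with a positive (4.15%) and 394 with a negative difference (1.73%). The median standard error of the difference was 0.25 and the median half-width of its 95% confidence interval was 0.525. For 18512 probe sets (81.4%) the whole interval lay within a 2-fold difference in either direction. In the other 4234 it reached past 2-fold, so 3 arrays per group did not bound the difference within 2-fold there. The interval lay wholly past 2-fold for 1 probe set, 245325_at, described next. The difference spanned -0.44 to 0.55 from the 5th to the 95th percentile of all probe sets, with a median of 0.04.

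**Figure D1:**
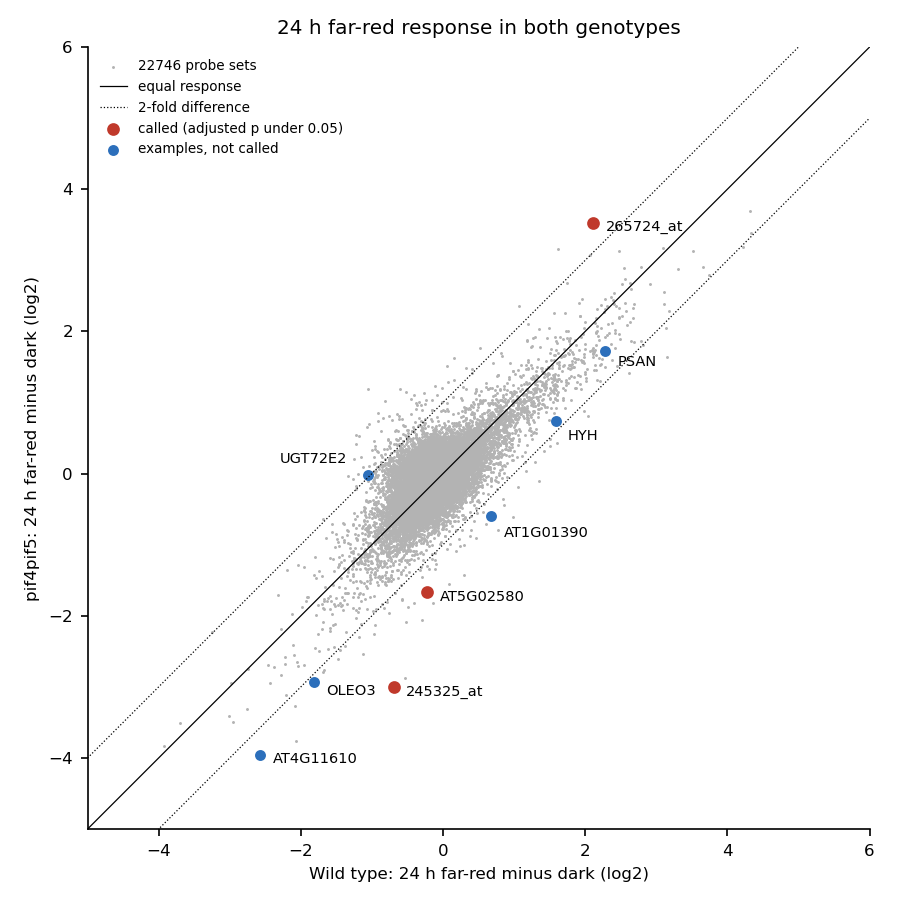
The 24 h far-red response of each probe set in wild type (horizontal) and in pif4pif5 (vertical), both as log2 24 h minus dark, from means of 3 arrays per group. The solid line marks equal responses and the dotted lines a 2-fold difference. The 3 called probe sets (red) lie outside the dotted lines, and 6 examples that were not called are in blue.

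Probe set 245325_at fell steeply in pif4pif5 and little in wild type. It has no gene in the probe table used here and is named by its identifier. In wild type the log2 signal was 12.31, 12.42 and 12.37 in darkness and 11.81, 11.60 and 11.62 at 24 h. The mutant gave 11.98, 12.06 and 12.18 in darkness and 8.88, 9.29 and 9.04 after 24 h. All 3 pif4pif5 arrays at 24 h lay below every other array of the comparison, and the dark arrays of pif4pif5 lay slightly below those of wild type, also without overlap. The wild-type response was a fall of 1.62-fold (log2 -0.69, adjusted p = 0.00142) and the pif4pif5 response a fall of 8.03-fold (log2 -3.01, adjusted p = 8.7e-11). The responses differed by -2.31 (SE 0.18, 95% interval -2.70 to -1.93, adjusted p = 5.27e-06 in limma). Relative to its own dark level, pif4pif5 thus ended 4.97-fold lower than the wild-type response would have placed it.

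After 1 h of far-red light the log2 signal of 245325_at was 12.04, 12.04 and 11.88 in wild type and 11.20, 11.21 and 11.43 in pif4pif5, and the genotypes did not overlap. The 1 h change was called in pif4pif5 (log2 -0.79, adjusted p = 0.00267) and not in wild type (-0.38, adjusted p = 0.28). The genotype difference in the 1 h response, -0.41 (SE 0.18), was not called. For that 1 h difference limma called 0 probe sets of 22746 (0%), and 440 had an unadjusted p under 0.05. The 1 h changes themselves were called in 0.787% of probe sets in wild type and 0.699% in pif4pif5.

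AT5G02580, a protein-coding gene with no symbol in the reference table, was lower in pif4pif5 at both 1 h and 24 h than in darkness. Its log2 signal in wild type was 7.90, 7.60 and 8.17 in darkness, 6.58, 6.98 and 6.67 after 1 h and 7.60, 7.78 and 7.63 after 24 h. The pif4pif5 signal was 7.26, 7.30 and 7.36 in darkness, 5.52, 5.50 and 5.51 after 1 h and 5.67, 5.80 and 5.42 after 24 h. The pif4pif5 arrays lay below the wild-type arrays in all 3 conditions, by the least in darkness. The fall at 1 h was called in both genotypes (-1.15 in wild type, adjusted p = 0.000305, and -1.79 in pif4pif5, adjusted p = 1.91e-06). At 24 h the wild-type mean had changed by -0.22 from darkness (adjusted p = 0.387), while the pif4pif5 mean was 3.19-fold below its own dark mean (adjusted p = 1.06e-06). The 24 h responses differed by -1.45 (SE 0.21, 95% interval -1.90 to -0.999, adjusted p = 0.0293 in limma). When any 1 of the 12 arrays was left out, the difference stayed between -1.59 and -1.30. Its call was lost in 8 of those 12 fits, with adjusted p up to 0.142. It was kept without wild-type dark A, B or C and without pif4pif5 24 h B.

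The 1 called positive difference belonged to 265724_at, which also has no gene in the probe table. Its log2 signal was near 3.5 in darkness in both genotypes, with 3.45, 3.30 and 3.57 in wild type and 3.46, 3.27 and 3.85 in pif4pif5. After 24 h it was 5.78, 5.26 and 5.60 in wild type and 7.01, 7.15 and 7.02 in pif4pif5, and the genotypes did not overlap. The log2 rise was 2.11 in wild type and 3.53 in pif4pif5, both called, with adjusted p = 7.89e-08 and 8.7e-11. The dark values lay near the median of dim probe sets (3.03 to 3.50 across arrays), so no fold over darkness is given. The responses differed by 1.42 (SE 0.22, 95% interval 0.96 to 1.88, adjusted p = 0.0343 in limma). With 1 array left out at a time the difference stayed between 1.28 and 1.58, and the call was lost in 8 of 12 fits, with adjusted p up to 0.18. It was kept without wild-type dark A or B, wild-type 24 h A or pif4pif5 dark C.

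**Figure D2:**
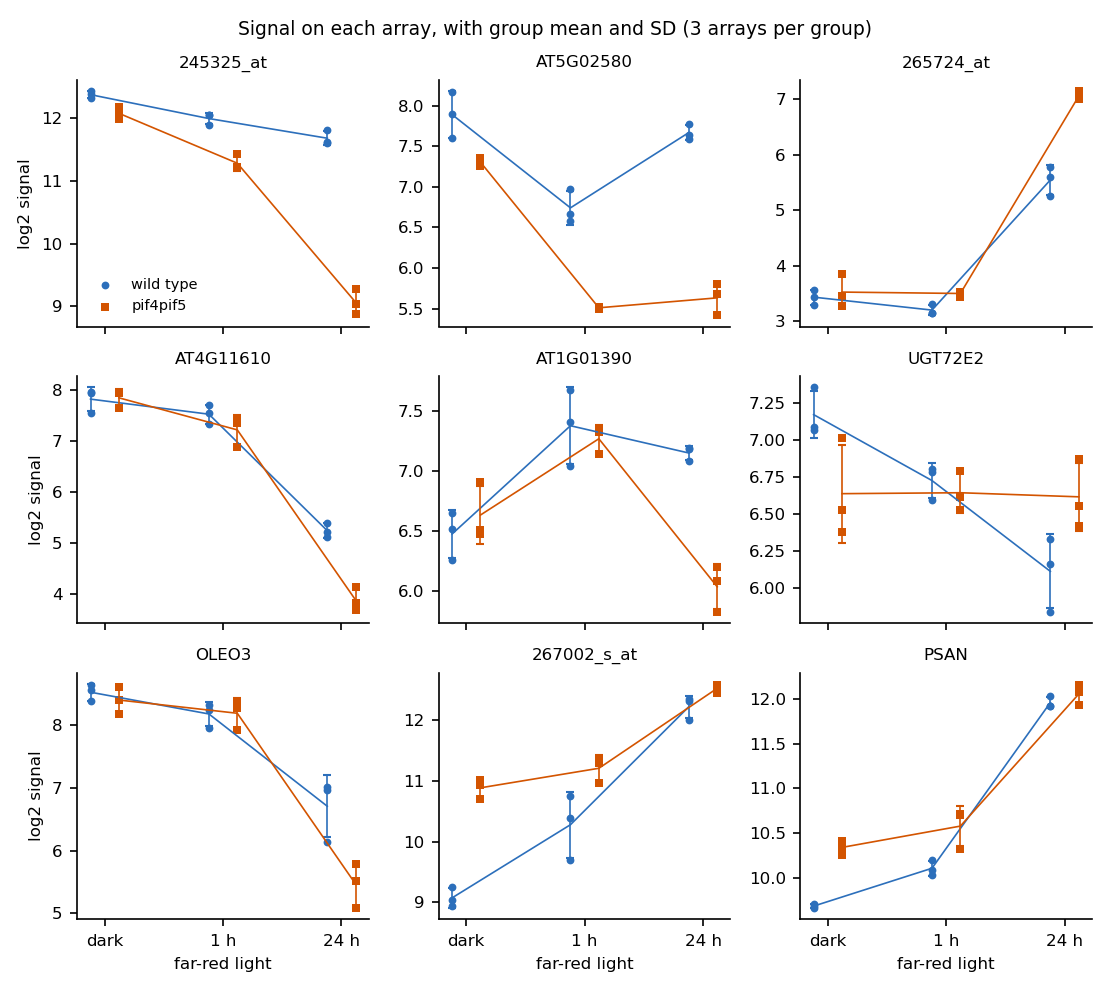
Log2 signal on every array (points) in darkness and after 1 h and 24 h of far-red light, with group means joined by lines and bars of 1 SD (n = 3), for wild type (blue circles) and pif4pif5 (orange squares). Far-red light was 0.5 µmol/m2/s at 1 h and 5 µmol/m2/s at 24 h, so the lines do not follow a single treatment over time. The top row holds the 3 called probe sets. In 245325_at the 24 h pif4pif5 arrays sit between 8.88 and 9.29, against 11.60 to 11.81 in wild type.

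The 3 probe sets were also called between genotypes at 24 h. The pif4pif5 level at 24 h was 6.11-fold below wild type for 245325_at, 4.10-fold below for AT5G02580 and 2.85-fold above for 265724_at. In darkness none of the 3 was called, with values of -0.30, -0.59 and 0.09 and adjusted p of 0.637, 0.358 and 0.984. Over all probe sets, 83 (0.365%) were called between genotypes at 24 h and 6 (0.0264%) in darkness. Both of these comparisons share arrays with the difference in response, so they describe the levels behind it and are no separate evidence for it.

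The single-gene probe sets next in order of p were not called. They are given with their intervals because they held the lowest p among single-gene probe sets in each direction. AT4G11610 fell in both genotypes, from 7.94, 7.56 and 7.96 to 5.40, 5.21 and 5.12 in wild type and from 7.94, 7.65 and 7.94 to 3.70, 3.83 and 4.14 in pif4pif5. The genotypes had overlapping signal in darkness and not at 24 h, and the responses differed by -1.38 (95% interval -1.90 to -0.87, adjusted p = 0.127). AT1G01390, the next of these, was also the probe set called in opposite directions. It went from 6.26, 6.65 and 6.51 to 7.18, 7.19 and 7.08 in wild type and from 6.47, 6.51 and 6.91 to 6.19, 6.08 and 5.83 in pif4pif5. Its wild-type rise (log2 0.67, adjusted p = 0.0136) and pif4pif5 fall (-0.60, adjusted p = 0.0262) were each called, and the difference of -1.27 was not (95% interval -1.77 to -0.77, adjusted p = 0.154). The number called in opposite directions was 0 after quantile normalization or after shifting the arrays to one median, 9 without wild-type dark A, 4 without wild-type dark C and 3 without wild-type dark B and C, and lay between 0 and 2 under the remaining alternatives.

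The other negative differences that filled the list ranged from -1.04 for AT3G54510 to -1.73 for AT5G38710, with P1R1 at -1.32, AT4G25260 at -1.20 and AT4G35720 at -1.11. In pif4pif5 the fall over 24 h was called for 4 of these 5 and not for P1R1 (adjusted p = 0.0505). In wild type it was called for AT4G35720 alone (-1.19, adjusted p = 0.000656). At 24 h, pif4pif5 was lower than wild type in all 5, each called, with differences from -1.35 for P1R1 to -1.79 for AT4G35720. The signal of AT5G38710 spread widely in wild type at 24 h, with values of 7.55, 7.77 and 6.15.

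On the positive side the lowest p among single-gene probe sets belonged to GH3.9, of the acyl acid amido synthetase family that conjugates hormones such as auxin. Its log2 signal was 3.04, 3.23 and 3.56 in wild-type darkness and 3.47, 3.49 and 3.09 at 24 h. In pif4pif5 it was 3.34, 2.70 and 3.26 in darkness and 4.28, 4.14 and 4.75 at 24 h, so only that group stood above the rest. The difference was 1.22 (95% interval 0.61 to 1.82, adjusted p = 0.812). UGT72E2, a glucosyltransferase of monolignols, the building units of lignin, was 7.09, 7.36 and 7.07 in wild-type darkness and 6.16, 5.84 and 6.33 at 24 h. In pif4pif5 it was 6.38, 7.01 and 6.53 in darkness and 6.56, 6.87 and 6.42 at 24 h. Its fall was called in wild type (-1.06, adjusted p = 0.000474), while in pif4pif5 the change was -0.02 (adjusted p = 0.967). The difference of 1.04 (95% interval 0.52 to 1.56, adjusted p = 0.84) was not called. The other 6 were AT5G35940 at 1.20, AT2G41970 at 1.02, AT1G72350 at 0.94, AT3G60110 at 0.91, AT5G39640 at 0.67 and AT3G23080 at 0.64. Of these, AT3G23080 was the one with signal above 7 on all arrays, with 24 h means of 7.98 in wild type and 8.51 in pif4pif5.

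Positive differences of small p were most frequent at low signal. Among the 7037 probe sets with a mean log2 signal under 4, 689 had a positive and 15 a negative difference at unadjusted p under 0.05, and the median difference was 0.21. Among the 863 probe sets with signal of 10 or over, 1 had a positive and 35 a negative difference, with a median of -0.08. In these dim probe sets the median signal was highest on wild-type dark C (3.50). On wild-type dark B it was 3.31, close to the 3.29 of pif4pif5 24 h B, and it was 3.03 on wild-type dark A and 3.05 to 3.29 on the other 15 arrays. A refit without wild-type dark B and C left 1 array, A, for the wild-type dark level, and that array was assumed to vary like the other groups. In that refit the dim probe sets gave 85 positive and 122 negative differences at unadjusted p under 0.05, with a median of -0.03, and 5 probe sets were called in all. The part of these arrays in any single positive difference was not tested. Among the 8 genes with positive differences, GH3.9 then gave 0.98, UGT72E2 0.96, AT5G35940 0.78, AT2G41970 0.98, AT1G72350 0.53, AT3G60110 0.47, AT5G39640 0.49 and AT3G23080 0.56, none of them called. Of the probe sets called on the full data, 245325_at gave -2.37, AT5G02580 -1.44 and 265724_at 1.43. Without B and C, 265724_at was no longer called (adjusted p = 0.163).

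**Figure D3:**
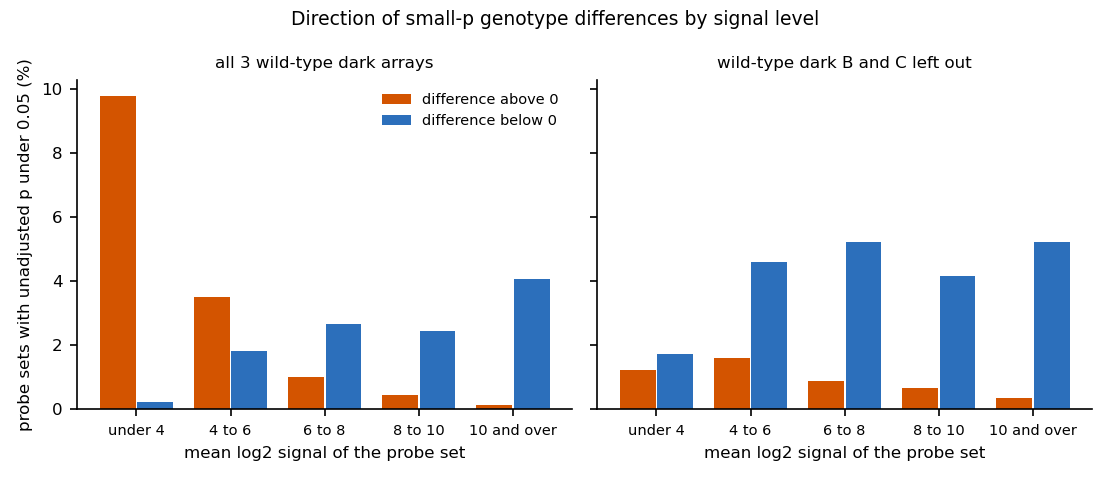
Percentage of probe sets with an unadjusted p under 0.05 and a positive (orange) or negative (blue) genotype difference in the 24 h response, by mean log2 signal, with all arrays (left) and without wild-type dark B and C (right), where wild-type dark A alone stands for its group. At signal under 4, 689 probe sets were positive and 15 negative on the left, and 85 and 122 on the right.

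Leaving out wild-type dark A, the array with the lowest signal in dim probe sets, gave 118 calls, 112 of them positive and 6 negative, and 101 of the positive ones had a mean signal under 4. All 3 probe sets called on the full data were among them. So were AT4G11610 (-1.44, adjusted p = 0.0325), AT1G01390 (-1.16, adjusted p = 0.046) and AT3G54510 (-1.10, adjusted p = 0.046), and on the positive side AT5G35940, AT1G72350 and AT3G60110, with differences of 1.40, 1.14 and 1.12. Leaving out any other single array of the comparison gave between 1 and 4 calls, and 245325_at was called in each of the 12 fits.

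**Figure D4:**
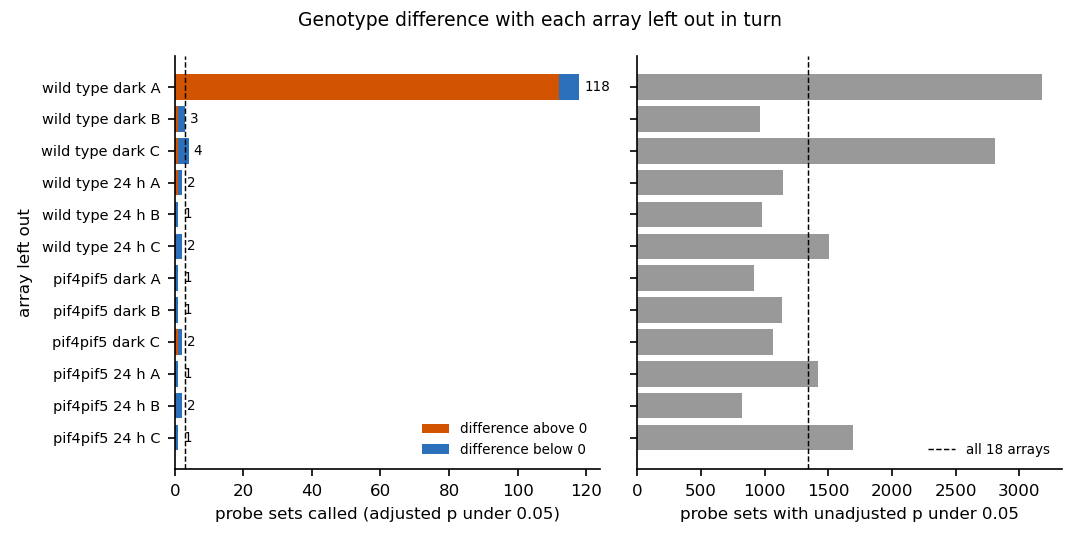
Number of probe sets called for the genotype difference (left, split by direction) and number with an unadjusted p under 0.05 (right) when each of the 12 arrays was left out, with dashed lines at the values for all arrays (3 and 1338). The fit without wild-type dark A gave 118 calls, and the others between 1 and 4.

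Genes of 21 pathway lists were then followed. Of 383 genes, 68 had a probe set of their own, in 18 lists, and 0 of these were called, against 0.0132% of all probe sets. The lists are described by counts and medians, beside a median of 0.04 over all probe sets. That median varied with signal: it was 0.21 at a mean log2 signal under 4, 0.02 from 4 to 6, -0.06 from 6 to 8, -0.05 from 8 to 10 and -0.08 at 10 or over.

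Of 48 genes of photosystems and light harvesting, 8 were measured, among them the related LHCB4.1, LHCB4.2 and LHCB4.3. The measured genes rose in both genotypes, with lower response values in pif4pif5 that were not called. The 24 h rise was called for 8 of 8 measured genes in wild type (median log2 1.66), against 4.48% of all probe sets, and for 7 of 8 in pif4pif5 (median 1.22), against 4.24%. The difference was below 0 for all 8, with a median of -0.44 and a range from -0.77 to -0.11. An unadjusted p under 0.05 was found for 3 of them, as for 1.73% of all probe sets in that direction. Such negative differences were more frequent in brighter probe sets, with 168 of 6326 at signal from 6 to 8 and 35 of 863 at 10 or over. The list's mean log2 signals ran from 7.26 to 11.83, where the median over all probe sets was below 0, and of all probe sets that rose in both genotypes on average 38.8% had a difference above 0. PSAN, a subunit of photosystem I, was 9.66, 9.70 and 9.68 in wild-type darkness and 11.93, 11.92 and 12.03 at 24 h. In pif4pif5 it was 10.26, 10.34 and 10.41 in darkness and 12.08, 11.93 and 12.16 at 24 h. The genotypes thus did not overlap in darkness and overlapped at 24 h. Its difference was -0.56 (95% interval -0.94 to -0.19, adjusted p = 0.84).

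The pif4pif5 mean in darkness was above the wild-type mean for each of the 8 genes, and none of these differences was called. The same dark arrays enter the difference in response, so the dark values are no separate evidence for it. The genotype difference in darkness had a median of 0.54, from 0.07 for LHCB4.3 to 0.90 for PSAE-1, beside a median of -0.05 over all probe sets. At 24 h it had a median of 0.20. In darkness 0.0264% of all probe sets were called. PSAE-1, another photosystem I subunit, differed by 0.31 at 24 h, and its response differed by -0.59. LHCB4.1 and LHCB4.2, minor antenna proteins of photosystem II, gave response differences of -0.50 and -0.39. PSBY and PSBW, small subunits of photosystem II, gave -0.27 and -0.25, and ATPC1, the gamma subunit of the chloroplast ATP synthase, gave -0.11. LHCB4.3 was the member not called in pif4pif5. It was 6.78, 6.71 and 7.44 in wild-type darkness and 8.12, 8.10 and 7.59 at 24 h, against 6.83, 7.13 and 7.17 and then 7.19, 7.15 and 7.36 in pif4pif5. Its difference was -0.77 (95% interval -1.35 to -0.20), and its dark levels overlapped between genotypes, unlike those of PSAN. The list median was -0.51 after quantile normalization, -0.39 after the shift to one median and -0.50 without wild-type dark B and C, with all 8 below 0 each time. Without wild-type dark A, 7 of 8 were below 0 and 7 of 8 dark differences above 0.

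Carbon fixation and chlorophyll synthesis, the other greening pathways, were split on the full data. RCA, the activase of Rubisco, rose in both genotypes (log2 1.56 in wild type and 1.13 in pif4pif5), and its difference was -0.42 (95% interval -0.86 to 0.02). SBPASE, an enzyme of the Calvin cycle, gave -0.37 and PRK, another, gave 0.21. Without wild-type dark B and C, PRK gave -0.09 and all 3 measured carbon fixation genes were below 0. Of 9 measured genes of chlorophyll synthesis, 7 had a difference above 0 and the median was 0.10. That median was 0.43 without wild-type dark C and 0.02 without wild-type 24 h C. Without wild-type dark B and C, 5 of the 9 were above 0. HEME1, a uroporphyrinogen decarboxylase of the tetrapyrrole pathway, rose by 1.20 in wild type and 1.59 in pif4pif5, and its difference was 0.39 (95% interval -0.09 to 0.87). PORB, a protochlorophyllide reductase, gave 0.15, with responses of -0.74 and -0.59. The difference between the photosystem and chlorophyll medians was not tested.

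**Figure D5:**
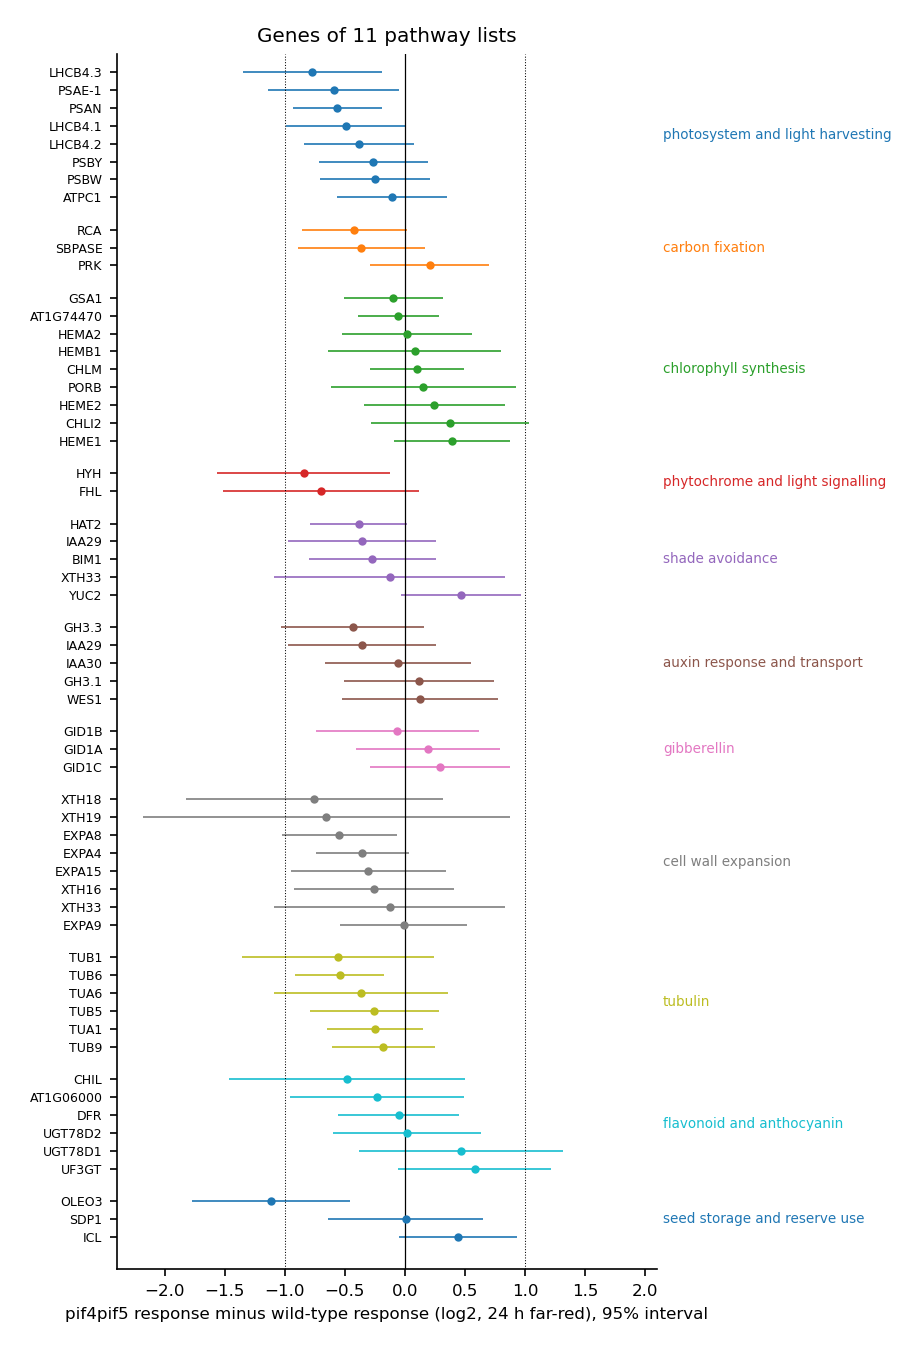
Genotype difference in the 24 h response (log2, pif4pif5 minus wild type) with its 95% confidence interval for the measured genes of 11 pathway lists, with dotted lines at a 2-fold difference. All 8 photosystem genes lie below 0 and 7 of 9 chlorophyll genes above it, and no gene shown was called.

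In the list of phytochrome and light signalling, 2 of 35 genes were measured. HYH, a bZIP factor related to HY5 that acts in photomorphogenesis, rose at 1 h in both genotypes (log2 1.65 and 1.57, both called). Its log2 signal in darkness was 3.43, 4.43 and 4.62 in wild type and 4.94, 4.91 and 4.81 in pif4pif5, so the genotypes did not overlap and wild-type dark A lay lowest. At 24 h it was 5.86, 5.80 and 5.58 in wild type and 5.61, 5.29 and 5.97 in pif4pif5, which overlapped. The difference of -0.84 (95% interval -1.56 to -0.12, adjusted p = 0.84) was not called. It was -1.57 when wild-type dark A alone stood for the wild-type dark level, and -0.48 when that array was left out. Its size thus depended on the wild-type dark arrays.

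FHL, a shuttle protein for nuclear import of phytochrome A, was 6.56, 5.37 and 6.88 in wild-type darkness and 5.55, 5.84 and 5.22 at 24 h. In pif4pif5 it was 6.11, 6.03 and 6.20 in darkness and 5.02, 4.60 and 4.44 at 24 h. The fall was called in pif4pif5 (-1.43, adjusted p = 0.00161) and not in wild type (-0.73, adjusted p = 0.1). The wild-type dark arrays spanned the widest range of the 4 groups, and the difference was -0.70 (95% interval -1.51 to 0.12). It was largest in size, -1.004, without wild-type dark C and smallest, -0.25, without wild-type dark B.

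Genes of growth gave values below 0, and none was called. All 8 measured genes of cell wall expansion were below 0, with a median of -0.33, and so were all 6 tubulin genes, with a median of -0.31. Their mean log2 signals ran from 6.55 to 11.25, where the median over all probe sets was below 0. Of all probe sets with a called fall in the mean response of both genotypes, 56.4% had a difference below 0. After quantile normalization or the shift to one median, 7 of 8 cell wall genes and 6 of 6 tubulin genes were below 0. Each list held 1 gene with an unadjusted p under 0.05, beside 1.73% of all probe sets in that direction. Those genes, EXPA8 and TUB6, had a mean log2 signal of 10 or over, where 35 of 863 probe sets had such a difference. XTH18 and XTH19, enzymes that cut and rejoin xyloglucan in the wall, gave -0.75 (95% interval -1.83 to 0.32) and -0.66 (-2.19 to 0.87). TUB6, a beta-tubulin, was 10.76, 10.84 and 11.05 in wild-type darkness and 10.53, 10.55 and 10.23 at 24 h. In pif4pif5 it was 10.74, 10.86 and 10.64 in darkness and 9.70, 9.77 and 9.79 at 24 h. The genotypes overlapped in darkness and not at 24 h, where pif4pif5 was 1.61-fold lower (adjusted p = 0.0192). The difference was -0.54 (95% interval -0.92 to -0.17, adjusted p = 0.84). EXPA8, a cell-wall loosening expansin, differed by -0.55 (95% interval -1.03 to -0.07). Other members moved far in both genotypes. TUB1 changed by -2.76 in wild type and -3.32 in pif4pif5, and EXPA9 by -2.74 and -2.75, with a difference of -0.01 (95% interval -0.54 to 0.52). Without wild-type dark B and C the median was -0.08 for cell wall expansion, with 5 of 8 below 0, and -0.20 for tubulin, with 5 of 6.

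Shade avoidance genes, whose induction in shade depends on PIF factors, gave 4 of 5 differences below 0 and a median of -0.27. HAT2, a homeodomain factor of auxin and shade responses, fell by 0.72 in wild type and by 1.11 in pif4pif5, both called, with a difference of -0.38 (95% interval -0.79 to 0.02). YUC2, of the family that catalyses the last step of auxin synthesis, was the member above 0, at 0.47. IAA29, an Aux/IAA repressor, gave -0.36, and GH3.3, an auxin-conjugating enzyme, gave -0.44 (95% interval -1.03 to 0.16). The 5 measured auxin genes had a median of -0.06, and the 3 measured gibberellin receptor genes, GID1A, GID1B and GID1C, one of 0.19. The auxin median was above 0 when any of 4 arrays was left out, among them wild-type dark A (0.14), and the gibberellin median was -0.06 without wild-type dark C. Without wild-type dark B and C, the auxin median was -0.47, with 5 of 5 below 0, and the gibberellin median was -0.04. After quantile normalization they were -0.28 and 0.26.

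Among the smaller lists, OLEO3 had the largest difference in size. It encodes an oleosin, a coat protein of seed oil bodies. Its log2 signal was 8.38, 8.64 and 8.55 in wild-type darkness and 7.02, 6.96 and 6.14 at 24 h, against 8.41, 8.61 and 8.18 and then 5.51, 5.79 and 5.09 in pif4pif5. The fall was called in both (log2 -1.82 and -2.93), the 24 h groups did not overlap, and the difference was -1.12 (95% interval -1.77 to -0.46, adjusted p = 0.84). ICL, an isocitrate lyase that helps convert seed oil to sugar, gave 0.44, and SDP1, an oil-body lipase, gave 0.01. RR16, a type-A response regulator of cytokinin signalling, gave 1.01, with pif4pif5 24 h values of 3.25, 5.25 and 3.61, of which replicate B lay far above the others. GI, a clock component, rose at 24 h in both genotypes (log2 0.73 and 1.18) and its difference was 0.45 (95% interval -0.23 to 1.13). UF3GT, an anthocyanin glycosyltransferase, gave 0.58, TAPX, a thylakoid ascorbate peroxidase, -0.18, EIN3, a transcription factor of ethylene signalling, -0.18, and LYC, a lycopene cyclase, -0.03. The flavonoid, photoprotection and carotenoid medians, at -0.02, -0.04 and -0.03, turned positive after the shift to one median.

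Markers of other organs and of handling were at low signal. The root-hair expansins EXPA7 and EXPA18 were the 2 measured genes of 12 root markers and gave differences of 0.25 and 0.52, with neither called. EXPA18 was 4.59, 3.97 and 3.47 in wild-type darkness and between 2.95 and 3.42 in pif4pif5 darkness. Of the stress and handling genes, COR15A, a cold-induced protein, gave 0.89 and PDF1.2, a defensin, 0.70, each with an unadjusted p under 0.05, as had 4.15% of all probe sets in that direction and 689 of the 7037 with signal under 4. Without wild-type dark B and C, COR15A and PDF1.2 gave 0.58 and 0.21, while EXPA7 and EXPA18 gave larger values, 0.54 and 1.09. COR15A reached 4.39 and 4.04 on pif4pif5 24 h replicates A and B and 3.13 on C. The part of root share or handling in the listed differences was not tested.

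The mean 24 h response of both genotypes was called in 4993 probe sets (22% of those tested), 1584 higher and 3409 lower. Among the rises, the median response was 0.74 in wild type and 0.69 in pif4pif5, and 38.8% had a difference above 0. Among the falls, it was -0.49 in wild type and -0.52 in pif4pif5, and 56.4% had a difference below 0. The median difference was -0.07 among the rises and -0.04 among the falls.

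Probe sets without a gene made up much of the top of the order of p, beside 8730 of the 22746 tested. Those among the 12 lowest p were included after their values were seen. 267002_s_at was the one that differed in darkness: its log2 signal was 9.03, 8.93 and 9.25 in wild-type darkness and 10.94, 10.70 and 11.01 in pif4pif5 darkness. At 24 h the values were 12.01, 12.31 and 12.34 in wild type and 12.58, 12.55 and 12.44 in pif4pif5. The dark difference of 1.81 was called (adjusted p = 0.000684), the 24 h difference of 0.30 was not (adjusted p = 0.769), and the response differed by -1.51 (95% interval -2.12 to -0.90, adjusted p = 0.154). 249732_at gave 1.48, 259172_at 1.30 and 258299_at 1.08, all with adjusted p = 0.154. The mean log2 signal of 249732_at was 3.15, in the range of dim probe sets. Negative differences that were not called came from 265547_at (-1.12, adjusted p = 0.578) and 247352_at (-1.70, adjusted p = 0.664). 247352_at fell in both genotypes, by 2.06 in wild type and 3.76 in pif4pif5. The rise of 258299_at was called in pif4pif5, from 4.96, 5.08 and 5.27 to 6.54, 6.75 and 6.46. In wild type, which went from 4.88, 4.93 and 5.26 to 5.67, 5.29 and 5.32, it was not (adjusted p = 0.0886).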

How the data were processed

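Per the submitters' processing notes, the authors obtained the deposited log2 values by robust multi-array averaging (RMA). No version or settings of that step are stated in the sources. The reported values had no further normalization. Probe sets were named with the platform's probe table and the TAIR10.1 gene table: of 22746 tested, 13513 had 1 gene, 503 several and 8730 none.

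The means of the 6 groups were estimated together, over 18 arrays, in limma 3.58.1 with statmod 1.5.0 under R 4.3.3 (12 residual and 5.91 prior degrees of freedom). P-values were adjusted by Benjamini-Hochberg over all probe sets, and 0.05 was the threshold. Intervals cover 95% and come from the same model. Precision is limited by the 3 arrays per group. The procedure was tested on simulated data.

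Members and gene lists were chosen with earlier results of these data known. Named genes were the called single-gene probe sets, filled to 8 per direction by lowest p, then the called members or the lowest-p member of each list, all measured light signalling genes, and up to 2 called probe sets without a gene per direction. All photosystem genes, other list members and further probe sets without a gene were added after values were seen. Alternatives changed the samples, replicate block, scaling, array weights, variance moderation, signal filter, annotation and minimum size, or left arrays out. Promoter motifs were not analysed here.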

Additional observations from a re-analysis of the deposited data

Results flagged for a closer look

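For 3 probe sets the 24 h far-red response differed between wild type and pif4pif5 by the test of the difference itself (limma interaction term). The difference was -2.31 for 245325_at, -1.45 for AT5G02580 and 1.42 for 265724_at. In 245325_at and AT5G02580 all 3 pif4pif5 arrays at 24 h lay below all 3 wild-type arrays, and in 265724_at all 3 lay above them. The calls come from these same arrays, so that separation is no separate evidence. 245325_at was called under each of 20 alternatives in which it was tested, with a difference from -2.42 to -2.20. AT5G02580 was called under 11 of 21 and 265724_at under 6 of 19, with differences from -1.59 to -1.30 and from 1.28 to 1.58.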

How the results depend on the processing

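The genotype difference was called for 3 probe sets in all, for 2 after quantile normalization, with trended and robust moderation or at a mean signal of at least 5, for 3 with array weights and for 4 after the shift to one median. It was called for 1 with the 12 arrays of the comparison alone, for 1 with the replicate block and for 1 among single-gene probe sets, and for 5 without wild-type dark B and C. With the replicate block, AT5G02580 and 265724_at each had an adjusted p of 0.0515. The labels tie the letters to no shared batch. Deviations of 13 of 18 same-letter pairs correlated over 0.1 and 5 did not (-0.03 to 0.358), and 9 of 12 arrays lay closest to their own letter, a hint from the data and not the design; the letters were not taken to pair the arrays. Without 1 array at a time, the calls ranged from 1 to 118, the latter without wild-type dark A. The cause was not tested, except that single-gene probe sets are fewer. The probe sets called the same way in both genotypes were 1573, and 697 among single-gene probe sets, of which fewer were tested. With the block, 2 were called in opposite directions. No listed gene was called under any alternative. Of 1029 values for 50 named genes and probe sets, 987 kept direction and call, 23 lost the call, 12 gained it and 7 changed sign. Those were ATPC1, from -0.210 to 0.00858 with 1 array left out, and LYC, 0.0146 after the shift and from -0.201 to 0.119 with 1 array left out. None of these sign-changing values was called. Of the 50, 3 were called on the full data, and the 23 lost calls were all of AT5G02580 and 265724_at. For those not called on the full data, a kept call meant staying uncalled. Alternatives that changed the error estimate, the adjustment or the probe sets tested, and not the estimate itself, could not change direction.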
